A study of Rattus norvegicus with 9 samples.

Results

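T cell identity and receptor signalling were examined in rat spleen RNA sequencing through 31 genes that encode the T cell receptor complex, its accessory receptors, its kinases and adaptors, and transcription factors of the T cell lineage. A row of the count table was taken as a member when its gene name was on this list, and all 31 names were found among 34408 gene entries. All 31 also passed the filter on low counts that left 15954 genes for testing. The rule itself uses gene names alone, but the list was drawn up with earlier results of these data known.

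The samples were 9 spleen libraries of wild-type rats, 3 in each of 3 groups, and the labels give splenocytes as the cell type. The labels describe the control rats only as control. Rats of the TAA group received thioacetamide, a liver toxin used to model cirrhosis, by intraperitoneal injection at 200 mg/kg every 3 days for 8 weeks, then 100 mg/kg every 3 days for another 8 weeks. The TAA+celecoxib group received the same injections and, during the last 8 weeks, celecoxib, an inhibitor of cyclooxygenase 2, at 20 mg/kg/day. Strain and age are not given in the labels. The labels also do not state that each library came from a separate animal, so a p-value compares a difference only with the spread among these libraries, which may be technical.

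The T cell receptor recognises peptides held by MHC molecules but has no signalling domain of its own. Signals pass through the CD3 chains and the zeta chain, whose tyrosines are phosphorylated by LCK and then bind ZAP70, which in turn phosphorylates the adaptor LAT. From LAT the signal divides into calcium, diacylglycerol and Ras branches that reach NFAT, NF-kB and AP-1. In the spleen most T cells lie in the white pulp around the central arterioles, beside the B cell follicles. Rat monocytes and macrophages also make CD4, and natural killer cells share the zeta chain and several adaptors with T cells.

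To show the DNA in front of the genes on which the results turn, promoters were taken from RefSeq (build GRCr8), where 27 of the 31 members had an entry. The CD3 chain genes are shown because they lie side by side and their levels are described first. Lck and Cd28 are shown for their RUNX matches. Lck has another promoter entry, with TCF/LEF and ETS matches and no RUNX match, which is not shown. Themis and Cd226 are shown because they had the smallest p-values of the members across the 3 groups, and Fyn because its level differed little. Each line gives the 250 bases before the start, 5′ to 3′ on the gene's strand, with matches to 4 motifs in capitals on either strand.
Cd3e, chr8:54211771-54212020, minus strand: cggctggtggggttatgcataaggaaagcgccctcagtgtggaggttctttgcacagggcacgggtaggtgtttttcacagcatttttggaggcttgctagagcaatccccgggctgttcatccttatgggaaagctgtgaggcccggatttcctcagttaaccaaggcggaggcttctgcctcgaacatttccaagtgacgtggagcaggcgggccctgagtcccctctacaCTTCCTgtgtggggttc
Cd3d, chr8:54185269-54185518, plus strand: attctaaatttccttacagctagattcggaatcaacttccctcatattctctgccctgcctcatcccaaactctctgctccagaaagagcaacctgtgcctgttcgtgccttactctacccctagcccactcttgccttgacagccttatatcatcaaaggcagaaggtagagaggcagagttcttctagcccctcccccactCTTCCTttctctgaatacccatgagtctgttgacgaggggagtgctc
Cd3g, chr8:54183919-54184168, minus strand: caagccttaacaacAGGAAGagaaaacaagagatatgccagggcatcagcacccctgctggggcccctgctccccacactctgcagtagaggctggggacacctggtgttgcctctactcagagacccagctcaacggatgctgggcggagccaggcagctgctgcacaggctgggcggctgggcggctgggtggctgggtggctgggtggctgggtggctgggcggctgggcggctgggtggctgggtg
Lck, chr5:147201268-147201517, minus strand: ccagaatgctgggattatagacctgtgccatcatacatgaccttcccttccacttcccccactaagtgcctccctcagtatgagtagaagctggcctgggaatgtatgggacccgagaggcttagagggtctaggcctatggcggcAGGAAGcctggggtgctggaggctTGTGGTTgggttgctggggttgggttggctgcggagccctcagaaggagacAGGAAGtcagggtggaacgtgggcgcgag
Cd28, chr9:69660066-69660315, plus strand: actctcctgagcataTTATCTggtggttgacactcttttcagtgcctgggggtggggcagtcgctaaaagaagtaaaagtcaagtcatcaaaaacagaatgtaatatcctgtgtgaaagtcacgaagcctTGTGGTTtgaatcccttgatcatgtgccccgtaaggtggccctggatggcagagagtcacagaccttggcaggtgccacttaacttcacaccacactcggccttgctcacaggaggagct
Cd226, chr18:84725066-84725315, plus strand: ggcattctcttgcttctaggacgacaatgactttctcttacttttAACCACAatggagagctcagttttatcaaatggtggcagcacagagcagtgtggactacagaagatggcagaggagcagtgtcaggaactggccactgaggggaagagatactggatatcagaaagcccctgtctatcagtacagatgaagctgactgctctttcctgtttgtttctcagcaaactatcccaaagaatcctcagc
Themis, chr1:18483852-18484101, minus strand: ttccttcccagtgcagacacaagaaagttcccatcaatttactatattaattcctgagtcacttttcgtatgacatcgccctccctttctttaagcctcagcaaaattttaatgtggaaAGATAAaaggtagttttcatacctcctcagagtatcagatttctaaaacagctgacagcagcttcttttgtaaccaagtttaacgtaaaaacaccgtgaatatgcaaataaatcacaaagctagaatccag
Fyn, chr20:44322414-44322663, plus strand: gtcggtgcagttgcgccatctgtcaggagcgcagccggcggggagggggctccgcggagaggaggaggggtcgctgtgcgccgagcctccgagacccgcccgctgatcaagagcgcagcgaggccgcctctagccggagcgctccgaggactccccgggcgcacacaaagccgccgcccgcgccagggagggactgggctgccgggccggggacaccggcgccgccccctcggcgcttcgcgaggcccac

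The motifs searched were CTTTGAA or CTTTGTT for TCF/LEF factors, AGATAA for GATA factors, AGGAAG for ETS factors and TGTGGTT for RUNX factors. Both strands were read over 300 bases, from 250 before to 50 after the start, and the motifs share no overlap in the lines shown. The ETS letters stood in promoters of 14 of the 27 members (51.9%), against 34.5% of all 33469 promoters. All 3 CD3 genes had them, 17 bases before the start in Cd3e, 47 in Cd3d and 236 in Cd3g. The RUNX letters stood in 7 of 27 members (25.9%), namely Camk4, Cd2, Cd226, Cd28, Cd96, Lck and Sh2d1a, against 5.57% of all promoters. TCF/LEF letters were found in 5 members (18.5%, against 10.95% of all promoters) and GATA letters in 4 (14.8%, against 11.6%). No match was found in Fyn, Gata3, Lef1, Rasgrp1 or Trat1. Their log2 fold changes in TAA against control were -0.15, -0.70, -0.77, -0.25 and -0.64. Nfatc2, with an ETS match, had 0.23, and Cd96, with a RUNX match, had -0.11. The matches describe the sequence and were not tested against expression.

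Libraries held 14211789 to 19014761 counts, and a single count corresponded to 0.0522 to 0.0710 CPM (counts scaled by TMM to a common library size). Each member had at least 84 counts in every library, and the members together took 0.140% to 0.239% of the counts. Other cell types varied within groups. The summed level of 12 macrophage genes was 2651 CPM in control 1 and 2098 CPM in TAA+celecoxib 1, against 4170 to 8080 CPM in the other 7 libraries, and 7 endothelial genes were lowest in the same pair, at 285 and 273 CPM. Hepatocyte transcripts summed to 93.3 CPM in control 1, to 611 CPM in TAA 1, and did not exceed 1.47 CPM elsewhere. Haemoglobin genes took 0.840% to 5.35% of the counts, with the highest share in TAA+celecoxib 2. In RNA of mixed spleen cells, fewer T cells and less RNA per T cell cannot be told apart.

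Most members had lower fitted values in TAA than in control and higher ones in TAA+celecoxib than in TAA, but no member passed edgeR's test. The second difference was not seen in every library. TAA+celecoxib 2 lay within the TAA range in 19 members, above it in 8 and below it in 4. Between TAA and control, 29 of 31 members had lower fitted values (49.8% of all genes) and 2 had higher ones (50.2%), with a median log2 fold change of -0.64 against 0.00 over all genes tested. The exceptions were Cd4, the co-receptor of helper T cells, and Nfatc2, a calcium-activated transcription factor. edgeR's quasi-likelihood test with Benjamini-Hochberg adjustment called 0 of the 31 members and 0% of all genes, and the smallest adjusted p of a member was 0.788. Over all genes, 957 had an unadjusted p under 0.05, and DESeq2 called 58. Among members, 19 were lower at an unadjusted p under 0.05, against 3.15% of all genes, and 0 were higher, against 2.85%. In 23 of 31 members every TAA library lay below every control, as did 7.89% of all genes, and 0 members had every TAA library above every control (6.94% of all genes). Most members shared a common pattern across the libraries, described below, so the members in these counts are not independent of each other.

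Between TAA+celecoxib and TAA, 29 of 31 members had higher fitted values (51.2% of all genes) and 2 had lower ones (48.8%), with a median log2 fold change of 0.51 against 0.01 over all genes tested. The exceptions here were Cd4 and Fyn, a Src family kinase. edgeR again called 0 members and 0% of all genes (smallest adjusted p of a member 0.890), 812 genes had an unadjusted p under 0.05, and DESeq2 called 25. Among members, 11 were higher at an unadjusted p under 0.05, against 2.63% of all genes, and 0 were lower, against 2.46%. In 7 members every TAA+celecoxib library lay above every TAA library (5.87% of all genes). Both comparisons use the same 3 TAA libraries, so their opposite signs are not independent of each other.

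Between TAA+celecoxib and control, 23 members had lower fitted values (49.8% of all genes) and 8 had higher ones (50.2%), with a median of -0.07 against 0.00 over all genes. edgeR called 0 members and 0% of all genes (smallest adjusted p of a member 0.911), 803 genes had an unadjusted p under 0.05, and DESeq2 called 27. No member had an unadjusted p under 0.05, against 2.07% of all genes on the lower and 2.96% on the higher side. Only in Cd5 did the libraries of these groups not overlap, against 9.68% of all genes. With single libraries left out, the count of higher members ran from 4 (without TAA+celecoxib 3) to 24 (without TAA+celecoxib 2). Without control 1 and TAA 1 together, a choice made after the data were seen, the split became 12 lower and 19 higher. These libraries held hepatocyte transcripts, but TAA 1 is in neither group of this comparison. In the test of any difference among the 3 groups, edgeR called 0 members and 0% of all genes, DESeq2 called 70 genes, and 12 members had an unadjusted p under 0.05, against 4.73% of all genes.

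**Figure D1:**
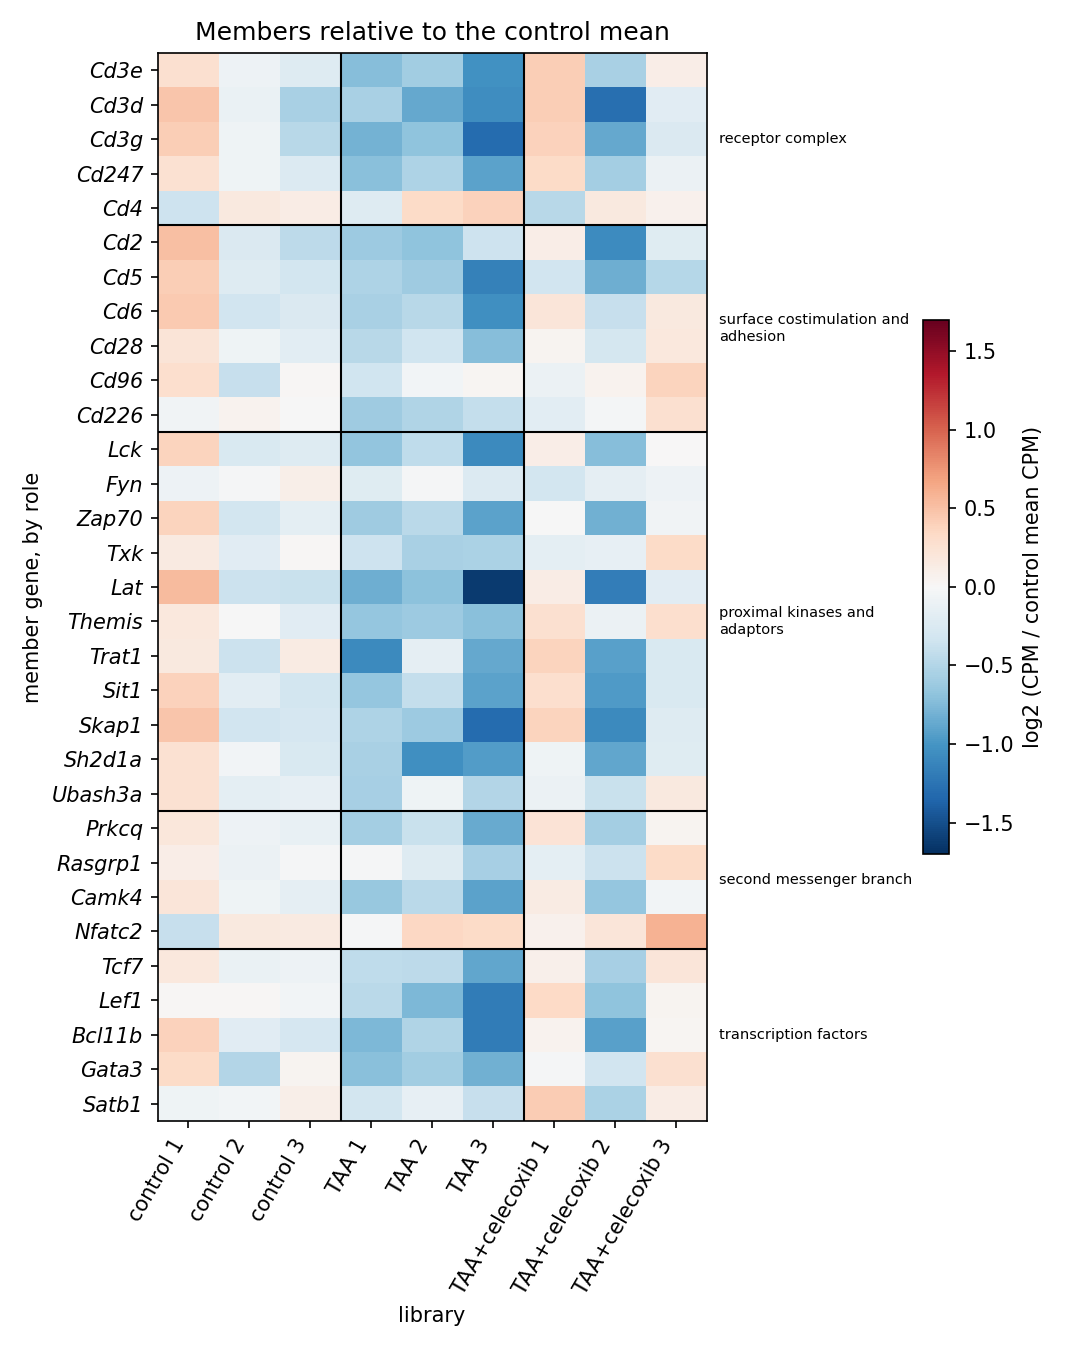
Level of each of the 31 members in each library, as log2 of its CPM over the control mean CPM, in rows grouped by role and columns grouped by treatment. The 3 TAA columns are mostly blue (lower), TAA+celecoxib 2 resembles them, and the rows of Cd4, Nfatc2, Cd96 and Fyn depart from the pattern.

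The receptor complex comes first. Cd3e encodes the epsilon chain of CD3, a signalling subunit required for the receptor to reach the surface. It was at 112, 87.3 and 79.6 CPM in control libraries 1 to 3, at 56.4, 61.6 and 45.5 CPM in the TAA libraries, and at 124, 63.6 and 101 CPM in TAA+celecoxib. All 3 TAA libraries lay below the other 6, though TAA+celecoxib 2 exceeded the highest TAA library only slightly. The log2 fold change was -0.77 (SE 0.25) in TAA against control and 0.82 (SE 0.25) in TAA+celecoxib against TAA (edgeR adjusted p = 0.788 and 0.890). Against control, TAA+celecoxib differed by 0.05 with a 95% interval from -0.50 to 0.60.

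Cd3d and Cd3g encode the delta and gamma chains, which pair with epsilon chains. Cd3d was at 75.3, 50.1 and 36.8 CPM in control, 36.8, 29.5 and 25.9 CPM in the TAA libraries, and 72.5, 22.3 and 47.4 CPM in TAA+celecoxib. The lowest control and the highest TAA library were nearly level, and TAA+celecoxib 2 was the lowest of all 9. Cd3g was at 145, 103 and 78.1 CPM in control, 62.4, 67.4 and 43.9 CPM in the TAA libraries, and 143, 59.3 and 91.5 CPM in TAA+celecoxib. Here TAA+celecoxib 2 lay within the TAA range, and every TAA library was below every control. The log2 fold changes in TAA against control were -0.82 (SE 0.40) for Cd3d and -0.91 (SE 0.34) for Cd3g, and those of TAA+celecoxib against TAA were 0.63 (SE 0.40) and 0.76 (SE 0.34). In the deposited coordinates the 3 genes lie together on chromosome 8, Cd3g at 49274960 to 49280901, Cd3d at 49282460 to 49287110 and Cd3e at 49297608 to 49308806. Cd3g and Cd3d are transcribed away from each other, with starts 1601 bases apart in GRCr8, and the Cd3e start is 26251 bases from that of Cd3d.

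Cd247 encodes the zeta chain, which carries the most phosphorylation motifs of the complex and also signals in natural killer cells. It was at 84.5, 67.5 and 60.4 CPM in control, 43.3, 49.2 and 37.8 CPM in the TAA libraries, and 88.4, 47.5 and 66.0 CPM in TAA+celecoxib. The control and TAA ranges did not overlap, and TAA+celecoxib 2 was the only TAA+celecoxib library within the TAA range. The log2 fold changes were -0.71 (SE 0.23) in TAA against control and 0.63 (SE 0.23) in TAA+celecoxib against TAA.

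Cd4 encodes the co-receptor that binds MHC class II. It was at 167, 240 and 234 CPM in control, 184, 268 and 282 CPM in the TAA libraries, and 154, 240 and 226 CPM in TAA+celecoxib. The groups overlapped, and within each group library 1 was the lowest, unlike the CD3 chains. The log2 fold change was 0.19 (SE 0.23) in TAA against control and -0.24 (SE 0.23) in TAA+celecoxib against TAA. The ratio of Cd4 to Cd3e CPM was 1.49, 2.75 and 2.94 in control, 3.26, 4.36 and 6.19 in TAA, and 1.24, 3.78 and 2.24 in TAA+celecoxib. Every TAA library had a higher ratio than every control, and TAA+celecoxib 2 again lay within the TAA range.

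The mean log2 level of the 12 macrophage genes was 6.26, 7.29 and 7.24 in control, 7.46, 7.28 and 7.93 in TAA, and 5.92, 7.25 and 7.21 in TAA+celecoxib. It was lowest in control 1 and TAA+celecoxib 1, which also had the lowest ratios of Cd4 to Cd3e, and highest in TAA 3, which had the highest ratio. All 12 macrophage genes had higher fitted values in TAA than in control (median 0.66) and lower ones in TAA+celecoxib than in TAA (median -0.82). Their part in the Cd4 level was not tested.

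**Figure D2:**
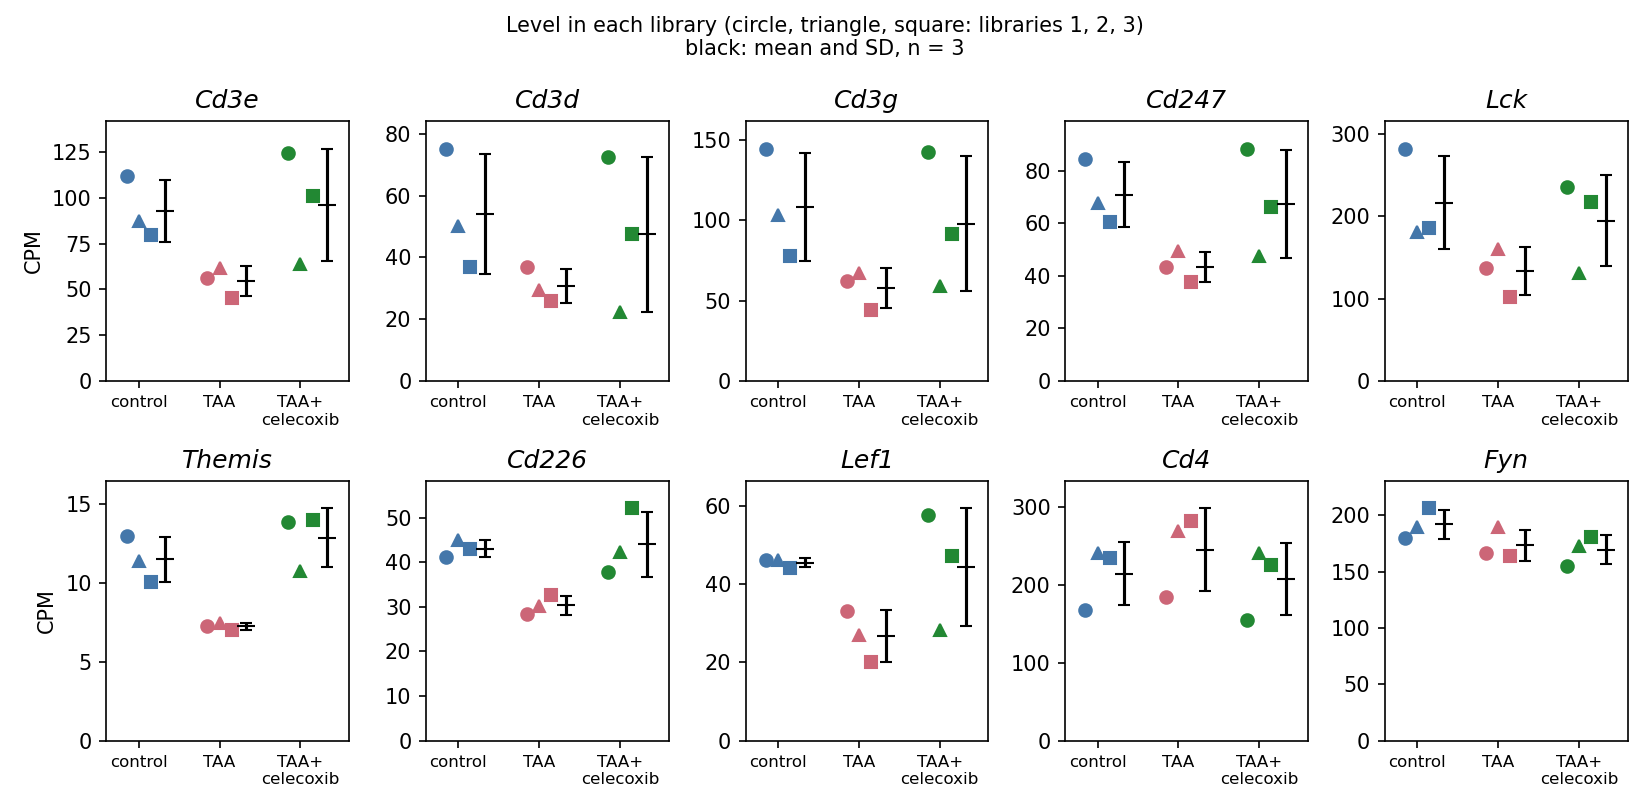
CPM of 10 members in each library (circle, triangle and square for libraries 1, 2 and 3; black bars, mean and SD, n = 3). Themis and Cd226 are lower in the 3 TAA libraries than in all 6 others, TAA+celecoxib 2 lies near the TAA level in Cd3d, Cd3g, Cd247, Lck and Lef1, and Cd4 and Fyn show no separation of the groups.

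Among the 6 surface receptors of costimulation and adhesion, all had lower fitted values in TAA than in control (median -0.53). In 4 of them every TAA library lay below every control (7.89% of all genes). Cd226 encodes an activating adhesion receptor of T cells and natural killer cells. It was at 41.1, 45.0 and 43.0 CPM in control, 28.3, 30.1 and 32.5 CPM in the TAA libraries, and 37.9, 42.2 and 52.0 CPM in TAA+celecoxib. Its TAA libraries lay well below the 6 others, and TAA+celecoxib 2 was close to the controls, unlike in the CD3 chains. The log2 fold change was -0.51 (SE 0.14) in TAA against control and 0.54 (SE 0.14) in TAA+celecoxib against TAA (edgeR adjusted p = 0.788 and 0.890).

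Cd28, the main costimulatory receptor of naive T cells, was at 23.9, 19.5 and 18.2 CPM in control, 14.8, 16.2 and 12.4 CPM in the TAA libraries, and 21.3, 16.6 and 23.2 CPM in TAA+celecoxib. Cd6, which binds the adhesion molecule ALCAM, was at 83.3, 49.0 and 51.4 CPM in control, 42.0, 44.0 and 29.7 CPM in the TAA libraries, and 70.6, 46.8 and 69.0 CPM in TAA+celecoxib. In both genes the TAA libraries were the 3 lowest of the 9, with TAA+celecoxib 2 next. Their log2 fold changes were -0.51 (SE 0.19) and -0.67 (SE 0.26) in TAA against control, and 0.50 (SE 0.19) and 0.69 (SE 0.26) in TAA+celecoxib against TAA.

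Cd5 encodes an inhibitory receptor whose level is tuned by receptor signalling. It was at 16.2, 10.5 and 9.73 CPM in control, 8.45, 7.95 and 5.48 CPM in the TAA libraries, and 9.68, 6.80 and 8.68 CPM in TAA+celecoxib. All 3 TAA+celecoxib libraries were also below the controls, although TAA+celecoxib 1 was nearly level with control 3. The log2 fold change against control was -0.73 (SE 0.27) in TAA and -0.53 (SE 0.27) in TAA+celecoxib, with a 95% interval from -1.14 to 0.08 for the second (edgeR adjusted p = 0.911). Cd2, an adhesion receptor, and Cd96, a receptor that shares a ligand with CD226, had overlapping groups, with log2 fold changes in TAA against control of -0.55 (SE 0.32) and -0.11 (SE 0.22).

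Proximal kinases and adaptors were the largest group, with 11 members. All 11 had lower fitted values in TAA than in control (median -0.64), and 8 had every TAA library below every control (7.89% of all genes). Themis encodes a protein of thymocytes and T cells that regulates SHP phosphatases at the receptor. It was at 12.9, 11.4 and 10.1 CPM in control, 7.25, 7.47 and 6.998 CPM in the TAA libraries, and 13.9, 10.7 and 13.98 CPM in TAA+celecoxib. The TAA libraries lay close together and apart from the 6 others. Themis had the smallest p of the members in the test across the 3 groups (edgeR adjusted p = 0.861). Its log2 fold change was -0.66 (SE 0.18) in TAA against control and 0.83 (SE 0.18) in TAA+celecoxib against TAA. DESeq2, an alternative test, called Themis in the second comparison (adjusted p = 0.0190) and across the 3 groups (adjusted p = 0.0197), and no other member in any comparison.

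Txk, a kinase of the TEC family found in T cells and natural killer cells, was at 36.0, 28.5 and 32.8 CPM in control, 25.4, 22.1 and 22.4 CPM in the TAA libraries, and 28.9, 29.3 and 40.5 CPM in TAA+celecoxib. Its TAA libraries were also the 3 lowest, and TAA+celecoxib 2 stood beside TAA+celecoxib 1. Sh2d1a encodes SAP, the adaptor of SLAM family receptors, and was at 25.6, 20.6 and 17.9 CPM in control, 14.6, 10.3 and 11.1 CPM in the TAA libraries, and 20.4, 11.6 and 18.6 CPM in TAA+celecoxib. Here TAA+celecoxib 2 was within the TAA range. The log2 fold changes in TAA against control were -0.48 (SE 0.17) for Txk and -0.83 (SE 0.25) for Sh2d1a, and in TAA+celecoxib against TAA 0.50 (SE 0.17) and 0.49 (SE 0.25).

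Lck, the kinase that starts the phosphorylation of CD3 and zeta, was at 283, 182 and 186 CPM in control, 137, 161 and 102 CPM in the TAA libraries, and 235, 131 and 218 CPM in TAA+celecoxib. Control and TAA did not overlap, and TAA+celecoxib 2 lay within the TAA range. The log2 fold change was -0.70 (SE 0.27) in TAA against control and 0.55 (SE 0.27) in TAA+celecoxib against TAA. Fyn, named after its values were seen, encodes the related kinase that many cell types also make, and its group means were 192 ± 13.1, 173 ± 13.98 and 169 ± 13.01 CPM in control, TAA and TAA+celecoxib (SD, n = 3). Its log2 fold changes were -0.15 (SE 0.11) in TAA against control and -0.03 (SE 0.11) in TAA+celecoxib against TAA. The ratio of Lck to Fyn CPM was 1.57, 0.956 and 0.903 in control, 0.820, 0.848 and 0.624 in TAA, and 1.52, 0.761 and 1.21 in TAA+celecoxib. All TAA ratios were below all control ratios, and TAA+celecoxib 2 lay within the TAA range.

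Lat, also named after its values were seen, had the most negative fitted value of the members in TAA against control, at -0.996 (SE 0.39), with 145, 77.1 and 76.8 CPM in control, 56.1, 61.4 and 32.2 CPM in the TAA libraries, and 109, 44.1 and 86.7 CPM in TAA+celecoxib. Control 1 was far above the other controls, and TAA 3 was the lowest library. The remaining members of this role were Zap70, the kinase recruited to phosphorylated zeta, the adaptors Trat1, Sit1 and Skap1, and Ubash3a, a phosphatase-family inhibitor of signalling. Their log2 fold changes in TAA against control ran from -0.77 (Skap1) to -0.36 (Ubash3a), and in TAA+celecoxib against TAA from 0.28 (Ubash3a) to 0.59 (Skap1). Trat1 and Ubash3a had overlapping groups in both comparisons.

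In the second messenger branch, 3 of 4 members had lower fitted values in TAA. Prkcq encodes protein kinase C theta, which links diacylglycerol to NF-kB. It was at 67.2, 55.2 and 53.8 CPM in control, 39.3, 45.0 and 32.3 CPM in the TAA libraries, and 69.0, 39.3 and 60.8 CPM in TAA+celecoxib. Camk4, a calcium and calmodulin-dependent kinase, was at 23.7, 19.5 and 18.4 CPM in control, 13.1, 14.9 and 10.97 CPM in the TAA libraries, and 22.7, 13.0 and 19.9 CPM in TAA+celecoxib. Both separated TAA from control, and in both TAA+celecoxib 2 had a TAA-range level. Their log2 fold changes were -0.60 (SE 0.22) and -0.66 (SE 0.23) in TAA against control, and 0.54 (SE 0.22) and 0.51 (SE 0.23) in TAA+celecoxib against TAA.

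Rasgrp1, the diacylglycerol-dependent activator of Ras, was at 94.3, 81.0 and 85.9 CPM in control, 86.3, 74.6 and 59.1 CPM in the TAA libraries, and 77.3, 67.8 and 109 CPM in TAA+celecoxib. All groups overlapped. Nfatc2, which also acts in other leukocytes, was at 15.5, 22.7 and 22.5 CPM in control, 19.9, 25.9 and 25.4 CPM in the TAA libraries, and 21.4, 23.4 and 30.6 CPM in TAA+celecoxib. Its groups overlapped too, and control 1, which was highest in many members, was here the lowest of 9. The log2 fold changes in TAA against control were -0.25 (SE 0.20) for Rasgrp1 and 0.23 (SE 0.21) for Nfatc2.

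All 5 transcription factors had every TAA library below every control (7.89% of all genes), with a median log2 fold change of -0.70. The margin was narrow in Gata3 and Satb1. Lef1, a factor that acts with TCF7 in T cell development and naive T cells, was at 46.1, 46.2 and 44.1 CPM in control, 33.1, 26.8 and 19.9 CPM in the TAA libraries, and 57.7, 28.2 and 47.0 CPM in TAA+celecoxib. Tcf7, which encodes TCF-1, was at 206, 169 and 172 CPM in control, 135, 134 and 99.0 CPM in the TAA libraries, and 193, 123 and 210 CPM in TAA+celecoxib. In both, TAA+celecoxib 2 was within the TAA range and the other TAA+celecoxib libraries were above it. Their log2 fold changes were -0.77 (SE 0.26) and -0.57 (SE 0.21) in TAA against control, and 0.74 (SE 0.26) and 0.51 (SE 0.21) in TAA+celecoxib against TAA.

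Bcl11b, which fixes T lineage commitment, was at 101, 67.8 and 63.4 CPM in control, 45.5, 54.5 and 34.1 CPM in the TAA libraries, and 81.0, 40.8 and 79.0 CPM in TAA+celecoxib. Gata3, a factor of T cell commitment and type 2 helper cells, was at 12.2, 6.89 and 10.1 CPM in control, 5.97, 6.44 and 5.54 CPM in the TAA libraries, and 9.62, 7.78 and 11.7 CPM in TAA+celecoxib. The TAA libraries of Gata3 were the 3 lowest, while in Bcl11b TAA+celecoxib 2 lay among them. The log2 fold changes were -0.79 (SE 0.30) and -0.70 (SE 0.25) in TAA against control, and 0.58 (SE 0.30) and 0.70 (SE 0.26) in TAA+celecoxib against TAA. Satb1, a chromatin organiser, had the smallest difference of the 5, at -0.28 (SE 0.21) in TAA against control. Its highest TAA library was at 73.8 CPM and its lowest control at 77.3 CPM.

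**Figure D3:**
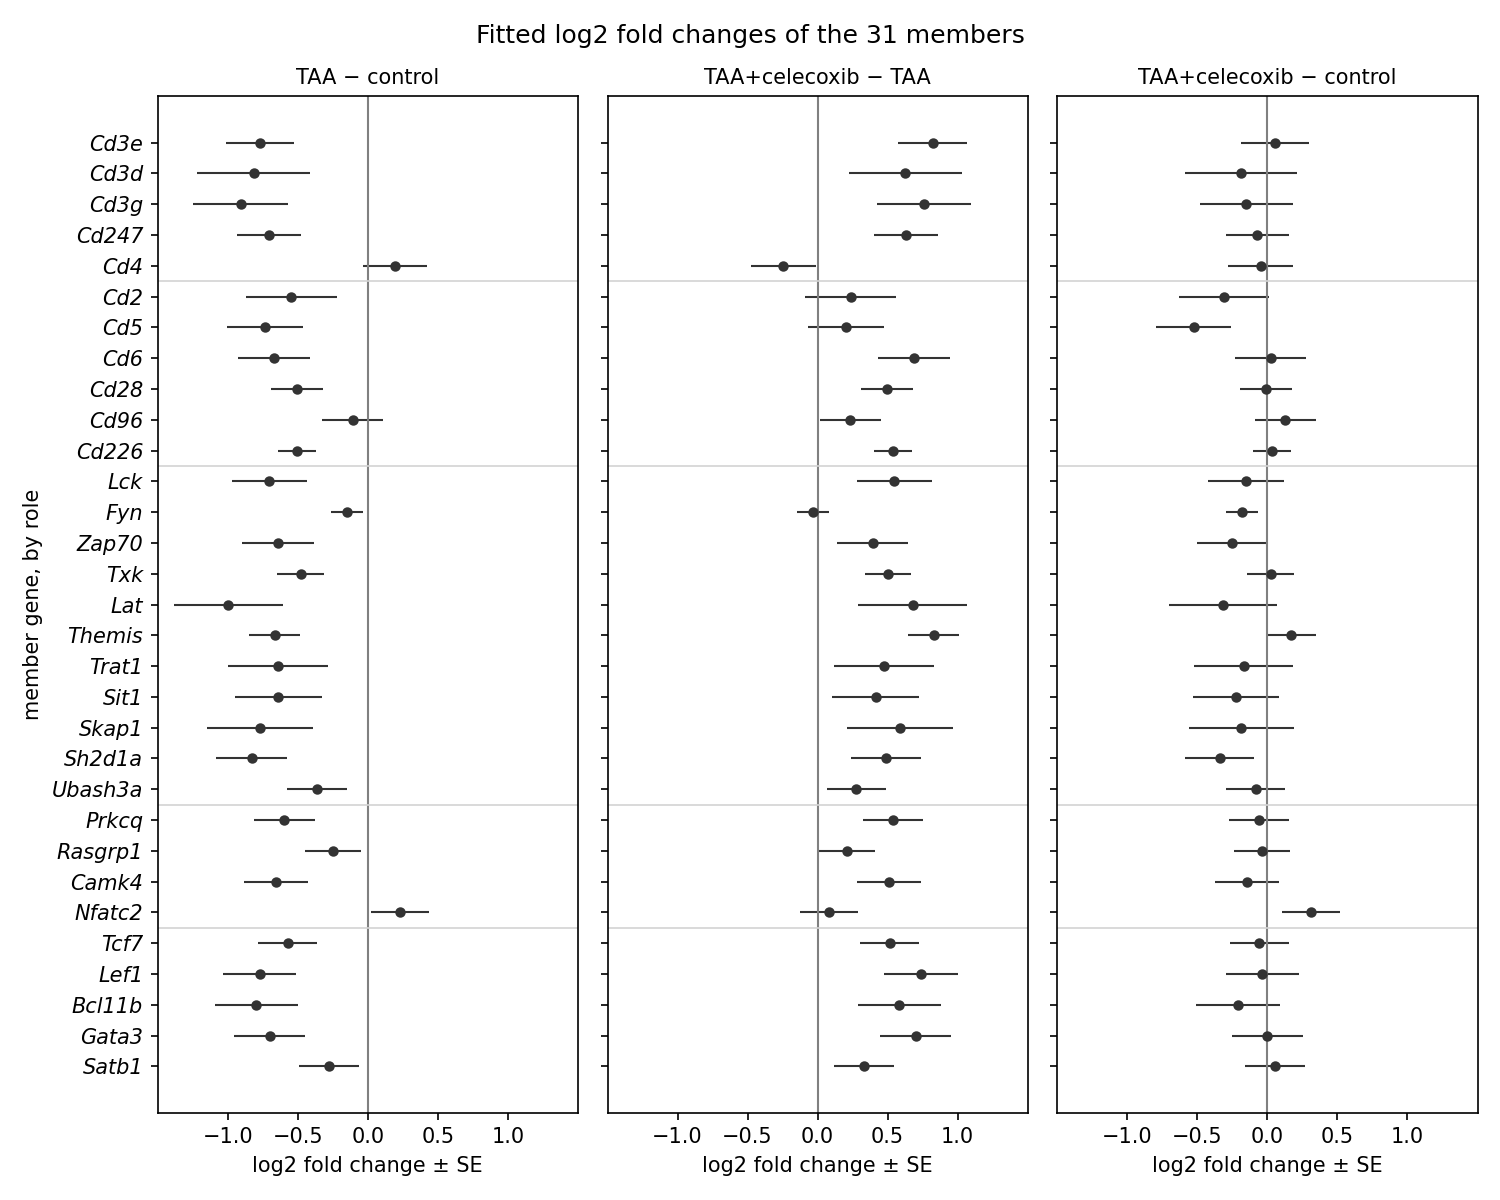
Fitted log2 fold changes of the 31 members with their standard errors in the 3 comparisons, in order of role. Points lie left of 0 for 29 members in TAA against control, right of 0 for 29 members in TAA+celecoxib against TAA, and near 0 on both sides in TAA+celecoxib against control.

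The libraries of a group differed among themselves. The mean log2 CPM of the 31 members was 5.83, 5.47 and 5.47 in control, 5.08, 5.19 and 4.87 in TAA, and 5.71, 5.06 and 5.65 in TAA+celecoxib. TAA+celecoxib 2 was thus within the range of the TAA libraries and the other TAA+celecoxib libraries within that of the controls. Member by member, TAA+celecoxib 2 was within the TAA range in 19 members, above it in 8 and below it in 4. The 8 were Cd3e, Cd6, Cd28, Cd96, Cd226, Txk, Themis and Gata3. TAA+celecoxib 1 lay above all TAA libraries in 25 members and TAA+celecoxib 3 in 28. Control 1 was the highest library in 16 members, and TAA 3 the lowest in 18.

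In 7 members all TAA libraries lay below the 6 others, against 1.89% of all genes, namely Cd3e, Cd6, Cd28, Cd226, Txk, Themis and Gata3. Without TAA+celecoxib 2 this held for 23 members, against 4.57% of all genes. Most members shared 1 pattern across the libraries: the first principal component of their log2 levels held 83.1% of the variance and the second 5.82%. Cd4 (-0.10), Nfatc2 (-0.05), Fyn (0.01) and Cd96 (0.03) had loadings on the first component closest to or below 0, against 0.27 for Cd3d.

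To set the members beside the CD3 chains of the same library, the libraries were rescaled to the summed counts of Cd3e, Cd3d and Cd3g and the test was repeated. On this scale the median of all genes was 0.80 in TAA against control, and that of the 28 other members was 0.19. Of the 28, 17 lay within 0.25 of the CD3 chains, and 5 lay more than 0.5 above them, which were Nfatc2 (0.99), Cd4 (0.98), Cd96 (0.73), Fyn (0.62) and Rasgrp1 (0.53). edgeR called 0 of the 28 and 0 genes in all on this scale (smallest adjusted p of a member 0.157 in TAA against control). In TAA+celecoxib against TAA the medians were -0.61 over all genes and -0.19 over the 28 members. When Cd2, Cd5, Cd6 and Cd28 set the scale, the median of the same 28 members, these genes included, was 0.08.

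Levels between genes were compared per length, as the deposited FPKM. Cd3g had the highest mean in control at 174 FPKM, then Cd4 at 121, Tcf7 at 116 and Lck at 103 FPKM. Lat (82.8), Cd3d (74.1), Cd2 (61.5) and Cd3e (61.3 FPKM) followed, so 8 members were above 50 FPKM. The lowest were Themis at 5.17 and Gata3 at 3.61 FPKM, and 8 members were below 10 FPKM. No 2 neighbours in this order differed by more than the sum of their SDs, in 30 neighbouring pairs.

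Other genes of the T cell receptor pathway, many of them expressed widely among leukocytes, were followed through a list of 40, of which 38 were tested. In TAA against control 24 had lower and 14 higher fitted values, with a median of -0.04, and edgeR called 0 of them. In TAA+celecoxib against TAA 29 were higher, with a median of 0.11. Malt1, a protease that links antigen receptors to NF-kB, was at 153 ± 11.6 CPM in control, 121 ± 2.40 CPM in TAA and 158 ± 18.6 CPM in TAA+celecoxib (SD, n = 3). Nfatc3, a relative of Nfatc2, was at 159 ± 8.13, 149 ± 2.78 and 196 ± 18.2 CPM in the same order. Dusp6, a phosphatase of ERK, differed in the other direction, at 86.5 ± 9.62, 121 ± 18.3 and 85.4 ± 12.3 CPM.

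Of 16 genes of T cell homing and survival, 10 had lower fitted values in TAA than in control (median -0.21), and 10 had higher ones in TAA+celecoxib than in TAA (median 0.20). Cd27, a costimulatory receptor, was at 54.9 ± 18.7, 35.7 ± 0.701 and 56.9 ± 15.1 CPM in control, TAA and TAA+celecoxib (SD, n = 3). Of 14 activation and checkpoint genes 12 were tested, and 11 of them had lower values in TAA than in control (median -0.57) and 11 higher values in TAA+celecoxib than in TAA (median 0.54). Tnfrsf18, a receptor of regulatory T cells, had TAA+celecoxib levels near those of TAA, at 14.4 ± 1.78, 8.59 ± 0.794 and 9.04 ± 1.20 CPM. Icos, an inducible costimulator, was at 32.9 ± 6.60, 39.7 ± 7.22 and 46.2 ± 4.06 CPM. edgeR called 0 genes of either list in any comparison.

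Cd8a, which encodes a chain of the CD8 co-receptor found on cytotoxic T cells, was at 79.5, 80.8 and 96.2 CPM in control. It was at 45.0, 55.1 and 38.1 CPM in the TAA libraries, and 93.3, 91.7 and 91.3 CPM in TAA+celecoxib. Unlike most members, it did not place TAA+celecoxib 2 with the TAA libraries, and the ratio of Cd8a to Cd3e was highest there, at 1.44. edgeR called Cd8a in no comparison, and which cells made it was not tested.

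Markers of other cells were read in the same libraries. Of 12 B cell genes 8 had lower fitted values in TAA than in control (median -0.12), and their mean log2 level exceeded that of the T cell members by 1.92, 2.10 and 2.15 in control, 2.49, 2.53 and 2.45 in TAA, and 2.41, 2.17 and 2.22 in TAA+celecoxib. The TAA libraries had the 3 largest gaps, with TAA+celecoxib 1 next. Of 9 natural killer cell genes 7 were lower in TAA (median -0.44), and their summed level was 342 to 353 CPM in control, 243 to 320 CPM in TAA and 299.96 to 376 CPM in TAA+celecoxib. Of 7 white pulp stroma genes, which include the chemokines that hold T cells in place, 6 were lower in TAA (median -0.73). In TAA+celecoxib 5 were higher than in TAA (median 0.61). Their mean log2 level was 5.58, 4.84 and 4.78 in control, 4.66, 4.88 and 4.53 in TAA, and 5.64, 4.59 and 4.94 in TAA+celecoxib. It was highest in control 1 and TAA+celecoxib 1, and TAA 2 exceeded controls 2 and 3. Only 1 of the 7 had every TAA library below every control (7.89% of all genes).

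Genes of neutrophils and their precursors (11 of 11 higher, median 2.32) and of erythroid cells (10 of 11 higher, median 2.34) had higher fitted values in TAA than in control. Erythroid genes summed to 170.0 to 929 CPM in control, 558 to 4630 CPM in TAA and 680 to 5440 CPM in TAA+celecoxib, with the highest sums in TAA+celecoxib 2 and TAA 1. The part of these cells in the T cell levels was not tested. With haemoglobin, immunoglobulin and mitochondrial genes left out, the median of members was -0.64 in TAA against control. Other transcripts of erythroid cells and neutrophils remained in that run, so it does not test the part of these cells. Without control 1 and TAA+celecoxib 1 together, a choice made after the data were seen, 28 members were lower in TAA than in control (median -0.48) and 29 higher in TAA+celecoxib than in TAA (median 0.34).

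**Figure D4:**
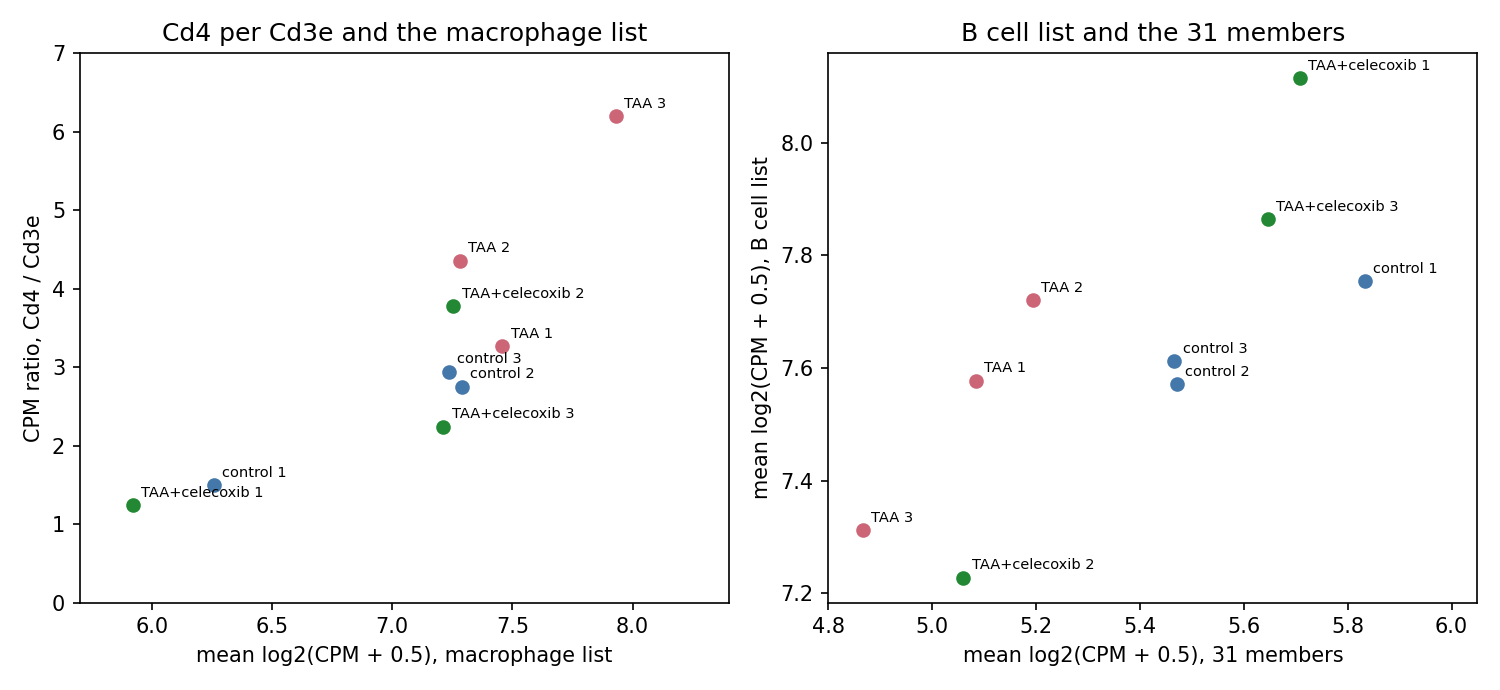
Left, ratio of Cd4 to Cd3e CPM against the mean log2 level of 12 macrophage genes in each library. Right, mean log2 level of 12 B cell genes against that of the 31 members, where the 3 TAA libraries lie to the left at 4.87 to 5.19 together with TAA+celecoxib 2 at 5.06.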

How the data were processed

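RNA was sequenced from 9 rat spleen samples, 3 each of control, TAA and TAA+celecoxib. For each gene the authors deposited a raw read count and an FPKM value, which scales the count by gene length and library (the library constant was 0.955 to 1.05 times the count total). HISAT2 2.0.5 and the build mRatBN7.2 are named in the submitters' processing notes. Neither the counting tool nor a strand setting is stated in the labels or files used here, so overlapping or antisense genes may share reads. Gene coordinates are copied from the deposited tables, and could not be matched to a build. No label gives a batch.

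The members and gene lists were chosen with earlier results of these data known. Tests used R 4.3.3 and edgeR 4.0.16: a quasi-likelihood model with 1 mean per group over the 9 libraries, TMM scaling, the default filterByExpr filter (minimum count 10, total 15), 2-sided tests and Benjamini-Hochberg adjustment over 15954 genes at 0.05. The coefficient of biological variation was 0.311. CPM are TMM-scaled and log2 levels of lists are log2(CPM + 0.5). Each mean has its SD over 3 libraries, and intervals are 95% intervals of the fit. Chi-square per degree of freedom between libraries of a group was 17.5 to 122, above counting error, so no library was counted as a repeat of another. Values in every library were given for the 5 receptor members, for the 4 members of each other role with the smallest p across the 3 groups, and for members against the median's sign. Of every other list, the 4 genes with the smallest such p could be named. Some of these genes are not reported here. DESeq2 1.42.0, limma 3.58.1, other filters, other scalings, a replicate block and left-out libraries were tried. The fit was tested on simulated data with changes larger than the members' median, so that test does not show how often changes of the members' size are called. A planned search of protein motifs was not run. Promoters came from RefSeq (GRCr8), and their strand was checked in 1382 overlapping pairs, of which 1382 matched.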

Additional observations from a re-analysis of the deposited data

How the results depend on the processing

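The members' median log2 fold change was negative in TAA against control and positive in TAA+celecoxib against TAA under every alternative run on the whole library scale. With single libraries left out, the median ranged from -0.75 to -0.47 in TAA against control (the second without control 1), from 0.34 (without TAA+celecoxib 1) to 0.71 (without TAA+celecoxib 2) in TAA+celecoxib against TAA, and from -0.23 to 0.10 in TAA+celecoxib against control. DESeq2 called 58, 25 and 27 genes in these comparisons and 70 across the 3 groups, where edgeR called 0 in each, and the cause was not tested. Fitted on only the 2 groups compared, edgeR called 1 gene in TAA+celecoxib against control. With single libraries left out, it called 0 to 1, 0 to 3 and 0 to 2 genes in the same order, and 0 to 2 across the 3 groups. Without control 1 and TAA 1 together it called 1, 2 and 0 genes and 1 across the groups. No member was among the calls of edgeR. Members lowest in all TAA libraries numbered 7 to 23 with single libraries left out. The share of all genes ran from 2.11% (without TAA+celecoxib 1) to 5.2% (without TAA 3). The count of 23 was without TAA+celecoxib 2, where that share was 4.57%. Scaled to Cd2, Cd5, Cd6 and Cd28, the 28 members other than the CD3 chains had a median of 0.080 in TAA+celecoxib against TAA. This set includes the scaling genes themselves. Scaled to the CD3 chains, its median was -0.19.

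Replicate numbers were not taken to pair the libraries in the main fit, and no label gives a pairing. Correlations of deviations ran from -0.26 to 0.53 between same-numbered libraries and from -0.44 to 0.24 between differently numbered ones. Whether the numbers mark a pairing was not tested. With the replicate block edgeR called 0 genes in each comparison, and the members' medians were -0.60, 0.50 and -0.08.

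Signs of single members were followed for all 31. In TAA against control, 1 member changed sign, Cd96 (-0.27 to 0.062), which was above 0 without control 1. In TAA+celecoxib against TAA, 4 members changed sign with single libraries left out: Cd2 (-0.031 to 0.50, below 0 without TAA+celecoxib 1), Fyn (-0.082 to 0.035, above 0 without TAA 2 and without TAA+celecoxib 1), Nfatc2 (-0.086 to 0.19, below 0 without TAA 1 and without TAA+celecoxib 3) and Rasgrp1 (-0.013 to 0.35, below 0 without TAA+celecoxib 3). In TAA+celecoxib against control, where values were near 0, limma-voom gave 0.000163 for Cd28 and 0.040 for Gata3, and the block gave 0.011 for Gata3. With single libraries left out, 25 members changed sign there: Bcl11b (-0.37 to 0.046), Camk4 (-0.32 to 0.053), Cd2 (-0.58 to 0.033), Cd226 (-0.10 to 0.13), Cd247 (-0.32 to 0.13), Cd28 (-0.12 to 0.12), Cd3d (-0.63 to 0.15), Cd3e (-0.18 to 0.28), Cd3g (-0.53 to 0.11), Cd4 (-0.20 to 0.12), Cd6 (-0.12 to 0.31), Cd96 (-0.036 to 0.30), Gata3 (-0.20 to 0.20), Lat (-0.60 to 0.056), Lck (-0.31 to 0.085), Lef1 (-0.27 to 0.20), Prkcq (-0.23 to 0.14), Rasgrp1 (-0.26 to 0.099), Satb1 (-0.17 to 0.28), Sit1 (-0.57 to 0.039), Skap1 (-0.58 to 0.12), Tcf7 (-0.21 to 0.14), Trat1 (-0.55 to 0.095), Txk (-0.16 to 0.11) and Ubash3a (-0.23 to 0.065). Chi-square per degree of freedom between libraries of a group was 17.5 to 122, so libraries differed by more than counting error.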
